A study of Mus musculus with 6 samples.

Results

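A set of 10 genes used by cells of the myeloid lineage was followed in 6 cell lines grown from mouse liver tumors. The genes are *Lyz2*, *Csf1r*, *Csf1*, *Adgre1*, *Fcer1g*, *Tyrobp*, *Cd68*, *Syk*, *Sirpa* and *Cd47*, and they were taken by symbol from the deposited expression table, where all 10 were found among the 20856 genes with values. They were picked with genotype differences in these samples already known. Their differences between the genotypes are therefore given as a description and without a test. The question here was whether the genes moved together from line to line, as the genes of a single kind of cell would, or each on its own.

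The tumors were raised in C57BL/6 mice by hydrodynamic injection, which pushes plasmids into hepatocytes through the tail vein, with a *Myc* transposon and a px330 plasmid that carries Cas9 and a guide RNA. The guide targeted *Trp53* in 3 lines (sgp53/Cas9 in the labels, *Myc*; sg*Trp53* below) and *Kmt2c*, also called *Mll3*, in 3 lines (sgMll3/Cas9, *Myc*; sg*Kmt2c* below). All lines carry the *Myc* transposon, no line has both targeted genes intact, and no line without an edit was compared. The tumor cells were grown untreated in DMEM with serum on collagen and passaged until no fibroblasts were seen. No sort of the cells is described, so the cultures could hold other cells of the tumor. Lines are numbered by replicate, and values are given for replicates 1, 2 and 3 in that order. The labels call sg*Kmt2c* replicates 2 and 3 2A and 2T1, whereas the methods give a separate mouse for each line. Each line is 1 library, so a spread between lines holds both the biology of the tumor and the culture.

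Macrophages and their blood precursors live on CSF1, a secreted growth factor that binds the receptor tyrosine kinase CSF1R on their surface. Many of their activating Fc receptors and some of their lectins have no signalling motif of their own. These pass signals through small adaptors, such as the Fc receptor gamma chain (*Fcer1g*) and DAP12 (*Tyrobp*), whose ITAM motifs recruit the kinase SYK. In the liver the resident macrophages are the Kupffer cells. CD47 on other cells binds SIRPA on macrophages and restrains their phagocytosis, which is why tumor cells that display CD47 are eaten less readily. Some of these genes are used outside the lineage as well: many epithelial and mesenchymal cells secrete CSF1, nearly all cells carry CD47, and lysosomal CD68 is found in more than macrophages.

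The libraries held 5312182 to 6878625 reads on the listed genes in the sg*Trp53* lines and 3680068 to 4704539 in the sg*Kmt2c* lines. Values are RPKM, which divide the reads of a gene by its listed transcript length and by the total of the library, and whole reads were worked back from them. RPM is the same without the division by length. A single read on a transcript of 2 kb was worth 0.0727 to 0.136 RPKM. *Trp53* itself was on the side of its label in each library, at 17.2, 17.6 and 19.4 RPKM in the sg*Trp53* set against 92.2, 124 and 121 RPKM where *Kmt2c* was targeted, while *Kmt2c* transcript overlapped between the genotypes. Lines of the same genotype differed widely in the markers of the labelled tissue. In sg*Trp53* 2 the keratin *Krt8* was at 9.27 RPKM against 431 and 265 RPKM in sg*Trp53* 1 and 3, and the collagen *Col3a1* was at 814 RPKM against 3.37 and 22.4 RPKM. In sg*Kmt2c* 1 a list of 12 hepatocyte genes summed to 5750 RPM, against 7.88 and 359 in sg*Kmt2c* 2 and 3. sg*Kmt2c* 2 was also low in the keratin *Krt19*, at 7.06 RPKM against 1866 and 166 RPKM in sg*Kmt2c* 1 and 3. Albumin (*Alb*) was low in all lines, from 0.64 to 4.36 RPKM.

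The 10 genes fell into 3 kinds by their values. *Lyz2*, *Csf1r*, *Adgre1*, *Fcer1g*, *Tyrobp*, *Syk* and *Sirpa* were lower in each sg*Kmt2c* line than in each sg*Trp53* line, so 7 of 10 did not overlap. *Csf1* and *Cd68* had lower means in the sg*Kmt2c* lines and overlapping lines. *Cd47* was the only member with a higher mean there, and its lines overlapped too. Among all 19183 genes with a read in any line, 8.84% were lower in each sg*Kmt2c* line than in each sg*Trp53* line. That share is printed for scale alone, because this contrast is the one the genes were chosen on. On the log2(RPKM + 1) scale the median difference of the 10 (sg*Kmt2c* minus sg*Trp53*) was -1.24, and the median over the 11617 genes high enough to test (RPKM at or above 1 in 3 lines or more) was -0.0859. In bulk RNA, fewer cells of a type and less RNA per cell cannot be told apart.

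**Figure D1:**
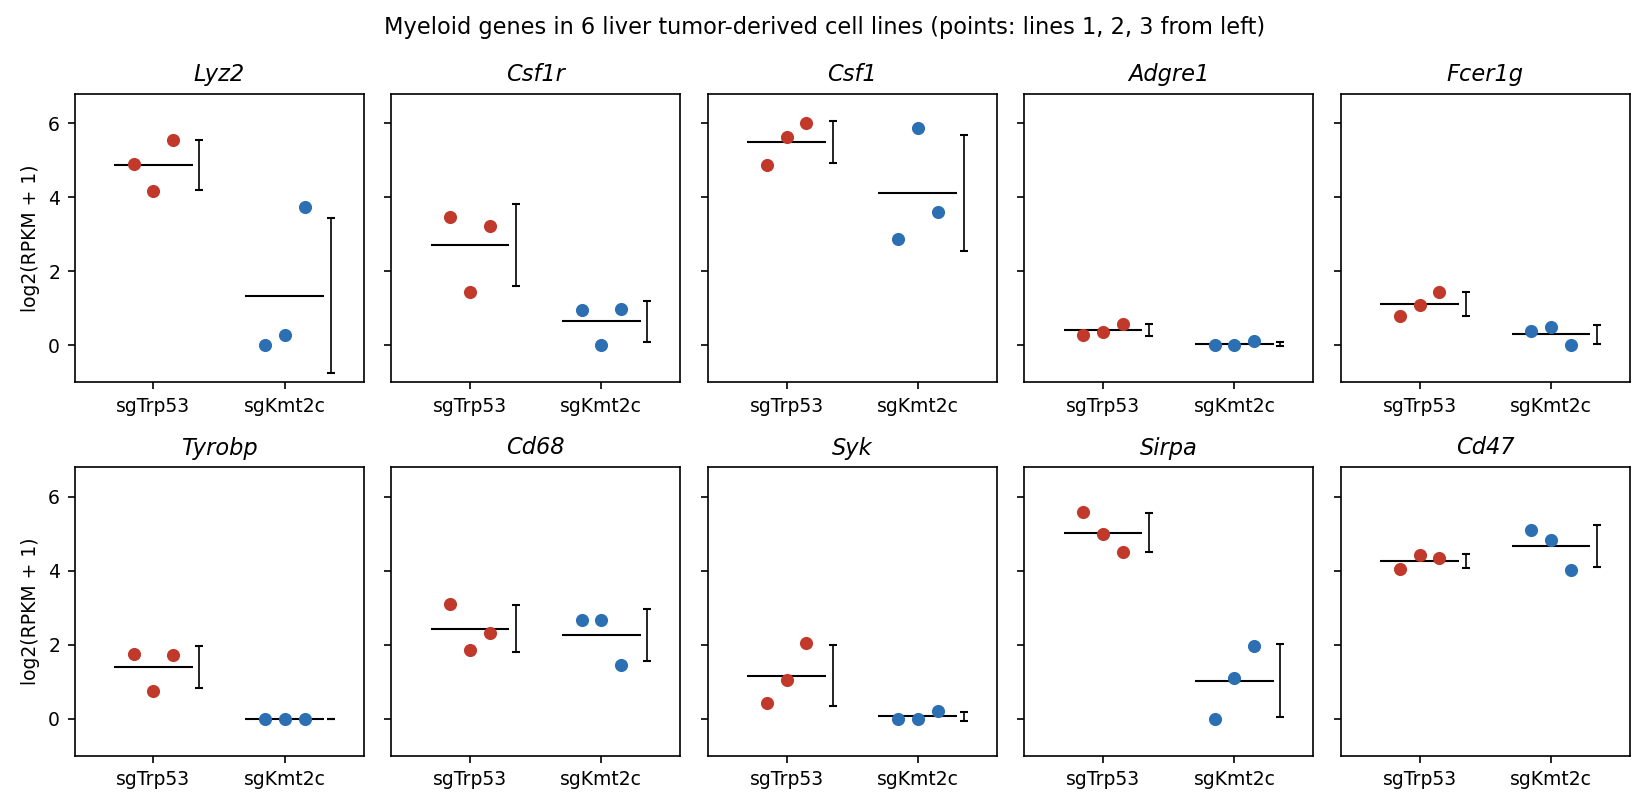
Level of each of the 10 genes in the 6 lines, as log2(RPKM + 1) on the vertical axis, with 1 panel per gene. Points are lines 1, 2 and 3 from left to right, horizontal bars are means and the vertical bars beside them are 1 SD (n = 3 lines). *Lyz2* and *Sirpa* have the largest differences of means, *Adgre1*, *Fcer1g*, *Tyrobp* and *Syk* lie low in all lines, and *Cd47* lies at a like level in all 6.

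Promoter sequence is shown for 4 members, to set genes that did not overlap between the genotypes (*Lyz2*, *Fcer1g*) beside genes that did (*Cd68*, *Cd47*). The sequences are the 150 bases before the transcription start in RefSeq, build GRCm38.p6, 5′ to 3′ on the gene's own strand, and 6 of the 10 members matched the table used. Capitals mark GGAA on either strand (GGAA or TTCC), the core letters read by ETS-family factors such as PU.1, which macrophages depend on. *Lyz2* is shown from chr10:117282273-117282422 (minus strand), *Fcer1g* from chr1:171234350-171234499 (minus strand), *Cd68* from chr11:69666171-69666320 (minus strand) and *Cd47*, at the first of its 2 starts, from chr16:49855504-49855653 (plus strand).
Lyz2: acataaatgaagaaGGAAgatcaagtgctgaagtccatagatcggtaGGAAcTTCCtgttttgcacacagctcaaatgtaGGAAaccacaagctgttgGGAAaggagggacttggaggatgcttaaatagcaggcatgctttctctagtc
Fcer1g: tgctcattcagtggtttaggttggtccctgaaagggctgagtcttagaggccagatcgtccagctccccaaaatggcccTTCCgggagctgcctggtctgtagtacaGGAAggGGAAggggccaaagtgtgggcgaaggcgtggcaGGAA
Cd68: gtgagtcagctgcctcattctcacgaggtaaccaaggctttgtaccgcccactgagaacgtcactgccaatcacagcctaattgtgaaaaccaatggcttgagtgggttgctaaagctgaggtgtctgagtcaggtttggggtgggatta
Cd47: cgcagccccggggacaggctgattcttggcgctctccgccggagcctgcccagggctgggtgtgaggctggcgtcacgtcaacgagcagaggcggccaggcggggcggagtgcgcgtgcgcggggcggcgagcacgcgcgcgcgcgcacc
These letters occurred 5 times for *Lyz2*, 4 times for *Fcer1g* and 0 times for *Cd68* and *Cd47*, and the *Csf1* window held 1. The first start of *Syk*, which was low in the sg*Kmt2c* lines like *Lyz2*, held 0 and its second start 1. Of all 32851 promoter windows of this length 80.8% hold them, with a median of 2 per window. The longer GAGGAA (or TTCCTC), which contains the shorter one, was in 14.5% of all windows and among the matched members only at the second start of *Syk*. A match of letters is a description of the window and shows no binding.

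The ligand and its receptor did not follow each other. *Csf1* (chromosome 3, from 107741048 to 107760469 on GRCm38) was at 28.4, 48.7 and 62.6 RPKM across the sg*Trp53* lines, against 6.32, 57.6 and 11.2 RPKM across the sg*Kmt2c* lines. Its second highest value was thus in sg*Kmt2c* 2, where 649 reads fell on it, and its means of 46.5 ± 17.2 and 25.0 ± 28.3 RPKM (SD, n = 3 lines each) differed by less than the spread between the sg*Kmt2c* lines. The log2(RPKM + 1) difference was -1.38 (standard error 0.763), and it moved to -0.76 without sg*Kmt2c* 1 and to -2.26 without sg*Kmt2c* 2. *Csf1r* (chromosome 18, from 61105572 to 61132149) lay at 10.0, 1.70 and 8.33 RPKM against 0.932, 0 and 0.967 RPKM. sg*Kmt2c* 2, rich in the ligand, had no read on the receptor, and sg*Trp53* 2, with 792 reads on *Csf1*, had only 35 on *Csf1r*. The receptor means were 6.67 ± 4.39 and 0.633 ± 0.549 RPKM (SD, n = 3), a difference of -2.06 (standard error 0.605), and the gene reached the level needed for testing through the sg*Trp53* lines alone. By the counting intervals of the reads (exact Poisson, 95%), *Csf1r* overlapped between sg*Trp53* 1 and 3, was clear of both in sg*Trp53* 2, and in that line overlapped sg*Kmt2c* 3.

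Of the other 12 genes of the CSF1 axis and the colony-stimulating factors, 5 were high enough to test and none was called between the genotypes by limma at an adjusted p-value under 0.05, or by limma voom on the reads. Across all genes tested 0.129% were called. At an unadjusted p-value under 0.05 the share over all genes tested was 8.58%, against which the counts at that level below are to be read. A single gene of the 5, the cell-surface proteoglycan *Sdc1*, had such a p-value. It lay at 341, 423 and 559 RPKM against 1692, 1361 and 958 RPKM, a log2 difference of 1.59 (adjusted p = 0.215 from limma). Other growth factors of the list ranged from nearly absent to levels near that of *Csf1*. *Il34*, the other ligand of CSF1R, had 4, 0 and 5 reads against 21, 0 and 3, and *Csf2* and *Csf3* (the granulocyte-macrophage and granulocyte factors) had 1 read each, in sg*Trp53* 1. *Csf3r*, the receptor of neutrophils, had no read in any line. *Kitl*, the ligand of KIT, lay at 5.98, 5.16 and 8.30 RPKM against 12.6, 5.86 and 12.3 RPKM, above *Csf1* in sg*Kmt2c* 1 and 3. *Flt3l*, the ligand of FLT3, had 46 reads in sg*Kmt2c* 2 and 2 to 12 in the other lines.

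The ITAM adaptors and their kinase were carried by few reads. *Tyrobp* (chromosome 7, from 30413788 to 30417577) had 8, 2 and 9 reads for sg*Trp53*, or 2.33, 0.667 and 2.32 RPKM, and no read in any sg*Kmt2c* line. With the sg*Kmt2c* group set at 3 reads the pooled ratio was 4.38. The exact 95% lower bound from the reads themselves was 3.23 (counting error only). *Fcer1g* (chromosome 1, from 171229572 to 171234365) had 3, 4 and 8 reads (0.730, 1.12 and 1.72 RPKM) against 1, 1 and 0. Pooled over lines, the ratio of its RPM was 5.19 (exact 95% interval 1.21 to 46.8, counting error only). *Syk* (chromosome 13, from 52583173 to 52648792) had 6, 17 and 64 reads (0.329, 1.07 and 3.10 RPKM) against 0, 0 and 2, a pooled ratio of 30.1 (exact 95% interval 8.09 to 253). The adaptors and the kinase were thus all near the limit of detection in the sg*Kmt2c* lines. *Fcer1g* and *Syk* had the same order among the sg*Trp53* lines, highest in sg*Trp53* 3 and lowest in sg*Trp53* 1, and for *Syk* the interval of the highest line was clear of the next. *Tyrobp* was as high in sg*Trp53* 1 as in sg*Trp53* 3, and its intervals overlapped across all lines that neighbour each other in order, as did those of *Fcer1g*. None of the 3 reached the level needed for the fit.

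Of 29 other genes of ITAM signalling 12 were tested and none was called (limma, adjusted p-value under 0.05; also none by limma voom), with 2 lower in the sg*Kmt2c* lines at an unadjusted p-value under 0.05. These were the Fc receptor *Fcgr3* and the exchange factor *Vav3* (log2 difference -1.19 and -1.25, adjusted p = 0.439 and 0.568 from limma), and *Fcgr3* reached the level needed for testing through the sg*Trp53* lines alone. Some members used mainly by blood cells were nearly silent in all lines: *Hcst* (DAP10) had no read, the T cell kinase *Zap70* and the B cell kinase *Btk* had 0 or 1 read in each line, and *Vav1* had 1, 1 and 0 reads against none. Others were not: the B cell linker *Blnk* had 247, 5 and 144 reads against 123, 64 and 127, and the kinase *Lyn* had 184, 65 and 215 against 64, 78 and 137, both with overlapping lines. The highest means of the list belonged to genes that many kinds of cell use. The kinase *Src* lay at 26.2, 24.2 and 46.6 RPKM against 41.5, 16.6 and 15.6 RPKM. *Fyn*, a Src-family kinase, lay at 53.9, 81.9 and 121 RPKM against 0, 29.7 and 31.5 RPKM, lower in each sg*Kmt2c* line (log2 difference -3.04, adjusted p = 0.592 from limma). Its listed length is 675 bases, while its longest transcript in the GENCODE M1 annotation has 3562, so its RPKM is high for its reads. *Nfatc1*, a transcription factor downstream of calcium, lay at 8.61, 38.0 and 10.2 RPKM against 7.11, 13.6 and 10.1 RPKM.

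*Lyz2* encodes the lysozyme of macrophages and granulocytes. It lies on chromosome 10 from 117277334 to 117282274. The sg*Trp53* lines gave 224, 115 and 395 reads, or 29.0, 17.1 and 45.3 RPKM, and the sg*Kmt2c* lines gave 0, 1 and 67 reads, or 0, 0.214 and 12.4 RPKM. The means were 30.5 ± 14.2 and 4.20 ± 7.09 RPKM (SD, n = 3 lines), a log2(RPKM + 1) difference of -3.53 (standard error 1.00). The sg*Kmt2c* value therefore rests on a single line: without sg*Kmt2c* 3 the difference was -4.73. The counting interval of *Lyz2* in sg*Kmt2c* 3 overlapped that of sg*Trp53* 2 and was clear of the other sg*Kmt2c* lines. *Lyz1*, the neighbouring and near-identical lysozyme of Paneth cells, had 1 read in sg*Trp53* 1 and none elsewhere, so next to no reads were assigned to it.

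*Adgre1* (chromosome 17, from 57358686 to 57483529), which encodes the macrophage surface marker F4/80, had 4, 5 and 11 reads (0.202, 0.290 and 0.492 RPKM) against 0, 0 and 1. The pooled ratio was 13.8 (exact 95% interval 2.21 to 574). It shared its highest line, sg*Trp53* 3, with *Lyz2*, but rested on few reads. *Cd68* (chromosome 11, from 69664213 to 69666153), a glycoprotein of lysosomes, went its own way. Its values were 7.60, 2.60 and 4.01 RPKM for sg*Trp53* against 5.35, 5.29 and 1.71 RPKM for sg*Kmt2c*. The lines with no *Lyz2* to speak of, sg*Kmt2c* 1 and 2, thus had more *Cd68* than sg*Trp53* 2 and 3, from 31 and 24 reads, although the counting intervals of neighbouring lines overlapped throughout. sg*Kmt2c* 3, where *Lyz2* was highest of its genotype, had the least. The means of 4.74 ± 2.58 and 4.12 ± 2.08 RPKM (SD, n = 3) differed by less than the spread between lines (log2 difference -0.17, standard error 0.479), and the sign turned without sg*Trp53* 1 (0.17) or without sg*Kmt2c* 3 (0.23).

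Of 28 other genes of the lysosome and its membrane 26 were tested and none was called (limma, adjusted p-value under 0.05; also none by limma voom), with 4 lower at an unadjusted p-value under 0.05. The cysteine protease *Ctsl* came nearest, at 252, 269 and 243 RPKM against 108, 98.9 and 114 RPKM (log2 difference -1.25, adjusted p = 0.0644 from limma). The others were the hexosaminidase subunit *Hexa* (-2.63, adjusted p = 0.121), progranulin (*Grn*, -0.77, adjusted p = 0.579) and the protease *Ctss* (-1.31, adjusted p = 0.505, all from limma), which is also on the macrophage list. *Hexa* reached the level needed for testing through the sg*Trp53* lines alone, and *Ctss* through these lines and sg*Kmt2c* 3 (1.04 RPKM). The median of the 26 was -0.07. The most abundant were the protease *Ctsd*, the tetraspanin *Cd63* and the membrane protein *Lamp1*, the first pair with overlapping lines. *Lamp1* lay at 221, 271 and 220 RPKM against 198, 213 and 177 RPKM, so each sg*Kmt2c* line was slightly lower (log2 difference -0.27, adjusted p = 0.702 from limma). Lysosomal transcripts were thus abundant in all lines, sg*Kmt2c* 1 and 2 with 0 and 1 read of *Lyz2* included.

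The 2 partners of the CD47 and SIRPA axis stood at opposite ends of the set. *Cd47* (chromosome 16, from 49855618 to 49915010) was at 15.6, 20.3 and 19.3 RPKM for sg*Trp53* against 33.5, 27.7 and 15.3 RPKM for sg*Kmt2c*, so sg*Kmt2c* 1 was highest and sg*Kmt2c* 3 lowest of all 6. From lowest to highest it spanned only 2.19-fold, the narrowest range of the 10. Its means were 18.4 ± 2.45 and 25.5 ± 9.31 RPKM (SD, n = 3; log2 difference 0.39, standard error 0.316), and the difference was 0.16 without sg*Kmt2c* 1 and 0.71 without sg*Kmt2c* 3. *Sirpa* (chromosome 2, from 129592835 to 129632228) lay at 46.7, 31.1 and 21.8 RPKM, from 205, 119 and 108 reads, against 0, 1.13 and 2.92 RPKM, from 0, 3 and 9 reads. The means were 33.2 ± 12.6 and 1.35 ± 1.47 RPKM (SD, n = 3), a difference of -4.01 (standard error 0.542). On this scale it was the largest of the 10, but *Lyz2* exceeded it in the limma voom fit (-5.35 against -5.23) and without sg*Kmt2c* 3 (-4.73 against -4.48). The table divides by a transcript length of 720 bases for this gene, while its longest transcript in the GENCODE M1 annotation has 3982 bases (5.53 times as long). The RPKM of *Sirpa* is therefore high for its reads, and a comparison with the level of other genes depends on that length. Its order among the sg*Trp53* lines was the reverse of that of *Syk*: highest in sg*Trp53* 1 and lowest in sg*Trp53* 3.

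Of 13 other genes of the axis 10 were tested and none was called (limma, adjusted p-value under 0.05; also none by limma voom). A single gene had an unadjusted p-value under 0.05, the endocytic receptor *Lrp1*, which can recognise calreticulin on dying cells. It lay at 2.21, 11.4 and 10.1 RPKM against 30.5, 48.6 and 16.8 RPKM, a log2 difference of 1.99 (adjusted p = 0.470 from limma). Calreticulin (*Calr*) lay at 288, 350 and 320 RPKM against 220, 261 and 269 RPKM. *Thbs1*, a secreted ligand of CD47, lay at 56.7, 282 and 289 RPKM against 99.4, 272 and 159 RPKM. *Cd24a* lay at 120, 84.7 and 157 RPKM against 65.2, 223 and 186 RPKM. Of these 3, *Calr* was lower in each sg*Kmt2c* line than in each sg*Trp53* line, as *Sirpa* was, by a far smaller amount (log2 difference -0.35, adjusted p = 0.630 from limma), and the lines of the others overlapped. Of the phosphatases that bind the tail of SIRPA, the widely used *Ptpn11* (SHP2) lay at 50.6, 49.8 and 62.4 RPKM against 38.4, 35.8 and 47.7 RPKM. The blood-cell enzyme *Ptpn6* (SHP1), which epithelial cells also make, had 34, 9 and 16 reads against 129, 20 and 12.

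**Figure D2:**
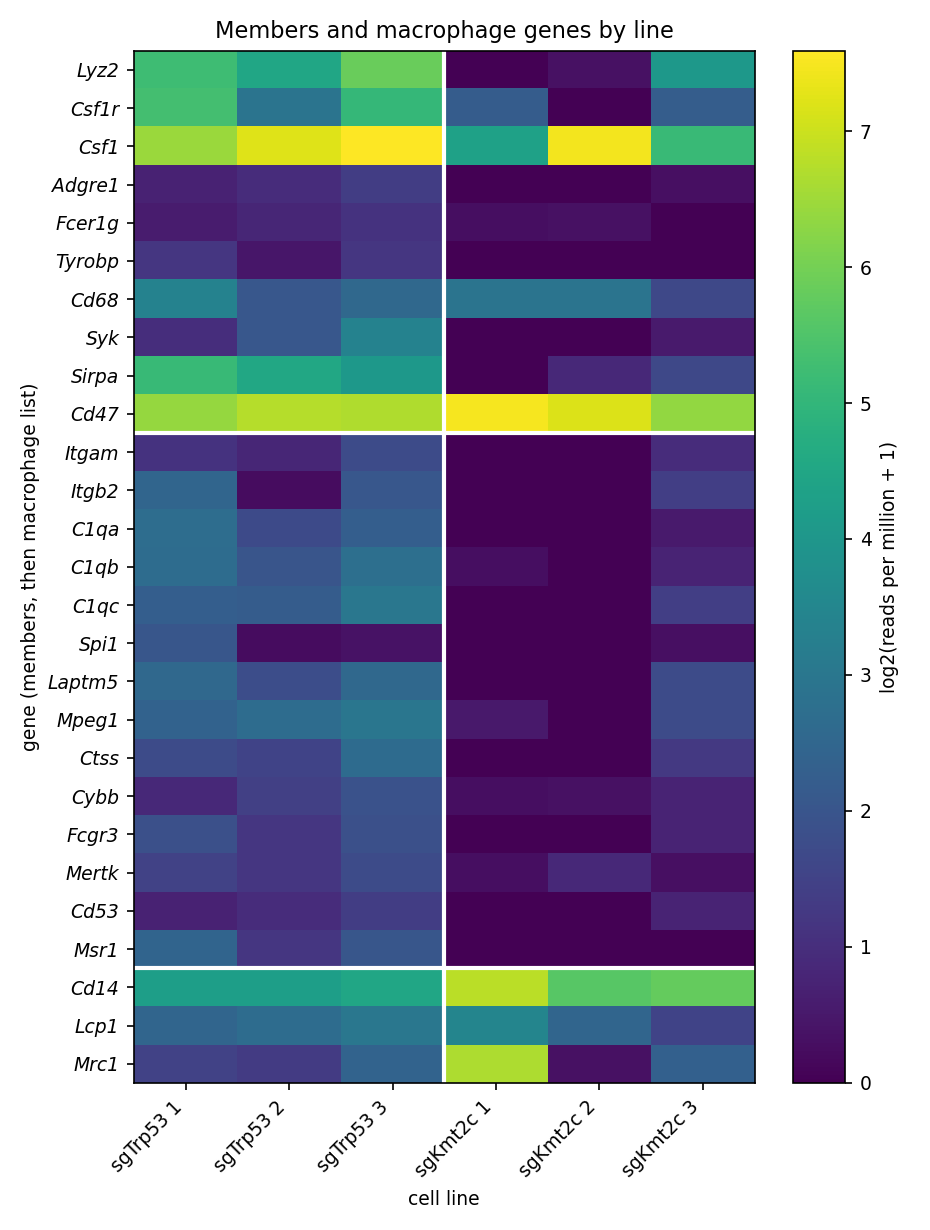
Level of the 10 genes and of the macrophage-list genes with at least 10 reads in a line, as log2(RPM + 1) in color (brighter is higher), with lines as columns and genes as rows, the 10 genes on top. *Lyz2* and most of the other macrophage genes are brighter in the sg*Trp53* columns, dark in sg*Kmt2c* 1 and 2 and in between in sg*Kmt2c* 3, while *Cd47*, *Csf1*, *Cd68* and *Cd14* do not follow them.

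Other genes of the lineage showed whether such cells could be seen at all. Of a list of 37 genes of macrophages and monocytes, the sg*Trp53* lines had a read on 31, 30 and 32 and the sg*Kmt2c* lines on 10, 7 and 25. Most were at a few reads, and 17 of the 37 had at least 10 reads in some line. Of those 17, 14 had at most 3 reads in each of sg*Kmt2c* 1 and 2. These 14 were picked for low values in those lines and a higher one elsewhere, so their order is in part set by that choice. In 12 of the 14 the third sg*Kmt2c* line was the highest of its genotype, for which no share over all genes was taken. Of the 17, 10 were lower in each sg*Kmt2c* line than in each sg*Trp53* line, all of them among the 14, and 1 was higher. Over all genes with a read 8.84% were lower, but that share is of unselected genes and gives no scale for the 14. The highest line was sg*Trp53* 3 in 9 of the 14, sg*Trp53* 1 in the other 5, and sg*Trp53* 2 in 0. *Lyz2* had an outline that not all of the 14 shared: much in sg*Trp53* 1 and 3, less in sg*Trp53* 2, some in sg*Kmt2c* 3 and next to nothing in sg*Kmt2c* 1 and 2.

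The chains of complement C1q, which tissue macrophages make, had it for the most part. *C1qc*, however, was nearly as low in sg*Trp53* 1 (3.78 RPM) as in sg*Trp53* 2 (3.58 RPM). *C1qa* had 34, 12 and 26 reads against 0, 0 and 2. *C1qb* had 33, 16 and 40 reads against 1, 0 and 3, and *C1qc* had 23, 19 and 48 against 0, 0 and 7. Surface and secretory genes had it in full, as *Laptm5* did, or in part. All had at most 3 reads in each of sg*Kmt2c* 1 and 2. Among the sg*Trp53* lines, however, *Mpeg1*, *Cybb* and *Cd53* were lowest in sg*Trp53* 1, and *Mertk* and *Msr1* were not highest of their genotype in sg*Kmt2c* 3. *Laptm5*, a lysosomal protein of blood cells, had 30, 13 and 34 reads against 0, 0 and 10, the pore-forming *Mpeg1* had 26, 29 and 47 against 2, 0 and 10, and *Ctss* had 14, 10 and 36 against 0, 0 and 6. The integrin chains *Itgam* (CD11b) and *Itgb2* (CD18) had 7, 4 and 16 and 28, 1 and 22 reads against 0, 0 and 4 and 0, 0 and 7. The Fc receptor *Fcgr3* had 16, 7 and 18 reads against 0, 0 and 3, and the tetraspanin *Cd53* 4, 5 and 11 against 0, 0 and 3. The oxidase subunit *Cybb* had 5, 9 and 19 reads against 1, 1 and 3. *Mertk*, a receptor for dying cells, had 11, 7 and 16 reads against 1, 3 and 1, and the scavenger receptor *Msr1* had 27, 7 and 21 against none, sg*Kmt2c* 3 included. *Spi1*, which encodes PU.1, had 19 reads in sg*Trp53* 1 but 1 and 2 in sg*Trp53* 2 and 3, against 0, 0 and 1.

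The other 3 of the 17 had more than 3 reads in sg*Kmt2c* 1 or 2. *Cd14*, a co-receptor for endotoxin, lay at 11.4, 11.6 and 13.6 RPKM against 70.3, 30.7 and 34.5 RPKM, so it was higher in each sg*Kmt2c* line. *Mrc1*, the mannose receptor, had 470 of its reads in sg*Kmt2c* 1 and 1 to 30 in the other lines. *Lcp1*, a protein that bundles actin, had 28, 29 and 49 against 47, 17 and 8. All 3 can be made by cells of other lineages, *Mrc1* for example by liver endothelium. They were set apart after their values were seen. Without them the list summed to 52.4, 32.4 and 59.6 RPM for sg*Trp53* against 2.34, 2.45 and 16.2 for sg*Kmt2c*, and with them to 76.7, 57.6 and 92.5 against 223, 55.7 and 76.4. Whether the list was lower in the sg*Kmt2c* lines thus depends on these 3 genes.

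In the fit over all genes 7 of the 37 were tested and none was called (limma, adjusted p-value under 0.05; also none by limma voom), while 5 were lower and 1 higher in the sg*Kmt2c* lines at an unadjusted p-value under 0.05. The lower ones were *C1qa* (log2 difference -2.00, adjusted p = 0.212), *C1qb* (-2.06, adjusted p = 0.160), *C1qc* (-1.85, adjusted p = 0.382), *Ctss* and *Fcgr3* (all from limma). These 5 reached the level needed for testing through the sg*Trp53* lines, so their common direction carries no weight. The higher one was *Cd14* (1.72, adjusted p = 0.236 from limma). Of 8 Kupffer cell genes, the defining *Clec4f*, *Timd4* and *Vsig4* had no read in any line. *Marco* had 1 read in all, and *Cd5l* had 5, 0 and 6 reads against 0, 0 and 7. The abundant *Id3* and *Nr1h3* are transcription factors of many cell types. *Id3* had 413, 1713 and 685 reads against 411, 1006 and 587, and *Nr1h3* at 2.48, 1.42 and 1.32 RPKM against 32.6, 8.06 and 3.30 RPKM (log2 difference 2.02, adjusted p = 0.528 from limma). The general leukocyte marker *Ptprc* (CD45) was close to absent, with 1, 2 and 2 reads against 0, 0 and 1, *Aif1* had 1 read in all, and *Ccr2* and *Lst1*, typical of monocytes, had none.

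**Figure D3:**
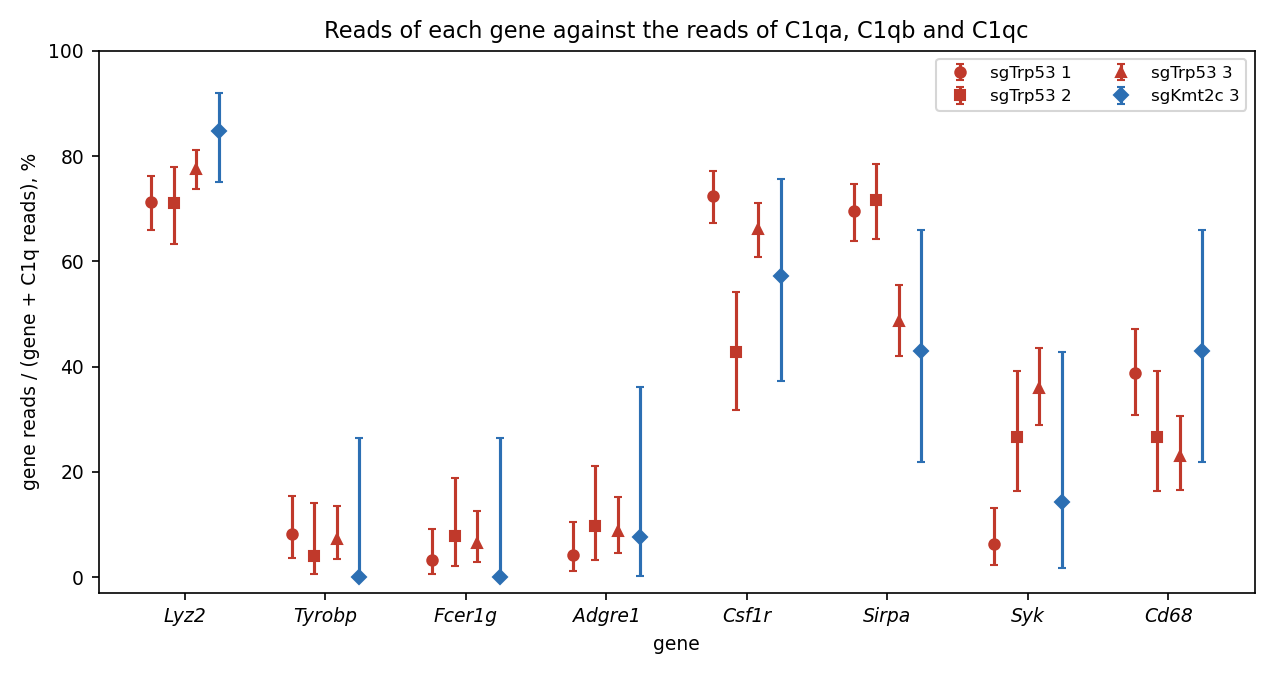
Reads of 8 of the genes as a percentage of their own reads plus those of *C1qa*, *C1qb* and *C1qc* in the same line, for the 4 lines with more than 1 C1q read. Bars are exact 95% binomial intervals, which cover counting error only. The 4 intervals share a value for *Lyz2* (narrowly), *Tyrobp*, *Fcer1g* and *Adgre1*, and do not for *Csf1r*, *Sirpa*, *Syk* and, narrowly, *Cd68*.

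Genes that come from a single kind of cell, and are made alike in each of those cells, keep their reads in 1 ratio from line to line. Each member was therefore set against the summed reads of *C1qa*, *C1qb* and *C1qc*, 90, 47 and 114 for sg*Trp53* and 1, 0 and 12 for sg*Kmt2c*. This reference was chosen after its values were seen. The share of *Lyz2* in the sum of both was 71.3% (exact binomial 95% interval 66.0 to 76.3), 71.0% (63.3 to 77.8) and 77.6% (73.7 to 81.2) in the sg*Trp53* lines and 84.8% (75.0 to 91.9) in sg*Kmt2c* 3. The 4 intervals shared a value by a narrow margin. In reads per C1q read *Lyz2* stood at 2.49, 2.45 and 3.46 in the sg*Trp53* lines and at 5.58 in sg*Kmt2c* 3, the highest ratio of the 4 lines. The intervals also shared a value for *Adgre1*, at 4.26%, 9.62%, 8.80% and 7.69%, for *Fcer1g*, at 3.23%, 7.84%, 6.56% and 0%, and for *Tyrobp*, at 8.16%, 4.08%, 7.32% and 0%. For the last 3 the intervals were wide, since few reads lie behind them, and a change of ratio of several fold would not have been seen.

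For the other 6 members the 4 intervals did not share a value. *Csf1r* made up 72.4% (67.2 to 77.2), 42.7% (31.8 to 54.1) and 66.1% (60.7 to 71.1) in the sg*Trp53* lines and 57.1% (37.2 to 75.5) in sg*Kmt2c* 3. It was low against C1q in sg*Trp53* 2, and in sg*Kmt2c* 1 it had 17 reads beside a single C1q read. *Sirpa* made up 69.5%, 71.7%, 48.6% and 42.9%, so sg*Trp53* 1 and 2 stood above sg*Trp53* 3. *Syk* made up 6.25% (2.33 to 13.1), 26.6% (16.3 to 39.1), 36.0% (28.9 to 43.5) and 14.3%, and so was low against C1q in sg*Trp53* 1. *Cd68* made up 38.8%, 26.6%, 23.0% and 42.9%, or 0.633, 0.362, 0.298 and 0.750 reads per C1q read, a spread like that of *Lyz2* and one that missed a shared value narrowly. It made up 96.9% and 100% in sg*Kmt2c* 1 and 2, where 31 and 24 reads of it stood beside 1 and 0 of C1q. *Csf1* and *Cd47* made up 84.8% to 96.6% in the 4 lines and stayed abundant where C1q was gone. Of the other 11 macrophage genes with at most 3 reads in sg*Kmt2c* 1 and 2, 9 had 4 intervals that shared a value and 2 did not, *Itgb2* and *Spi1*. Few reads lie behind these intervals too. *Laptm5*, at 21.7% in sg*Trp53* 2 and 45.5% in sg*Kmt2c* 3, still shared a value, so the count of 9 cannot show a common ratio. *Itgb2*, at 1 read in sg*Trp53* 2, was low there as *Csf1r* was.

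**Figure D4:**
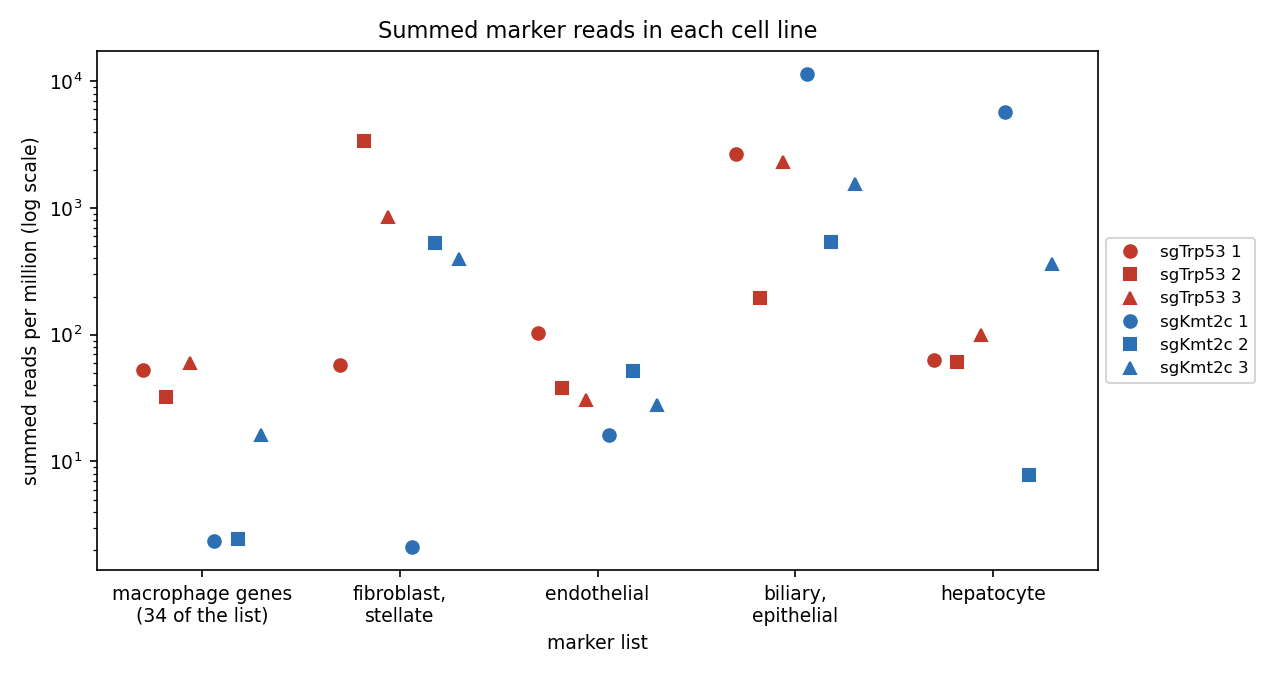
Summed RPM, on a log axis, of marker lists of 5 kinds of cell in each of the 6 lines (the macrophage list without *Cd14*, *Lcp1* and *Mrc1*). The macrophage sum so trimmed runs from 2.34 to 59.6, below the fibroblast sum of sg*Trp53* 2 (3360) and the epithelial sum of all lines. These genes were left out after their values were seen, and no other list was trimmed. With all 37 genes the macrophage sum of sg*Kmt2c* 1 was 223, above the epithelial sum of sg*Trp53* 2 (193). The order of the lines differs from list to list.

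Most genes of other blood cells had few reads or none, with some exceptions. Of 12 lymphocyte genes 11 had no read in any line, and *Cd4* had a single read. Of 9 listed neutrophil genes, 6 had none, and the granule gene *S100a8*, which epithelial cells can also make, had 0, 0 and 4 reads against 50, 11 and 0. Of 11 dendritic cell genes 5 had none, with *H2-Aa* and *H2-Ab1* among them. *Zbtb46*, with the highest mean of that list, had 21, 7 and 65 reads against 24, 6 and 4, and *Flt3* had 4, 0 and 12 against 0, 2 and 1. Of 8 genes of mast cells, platelets and red cells, the integrin chain *Itga2b* had the highest mean, at 0.123 to 1.77 RPKM, and the platelet chemokine *Ppbp* the highest single value, at 3.90 RPKM (29 reads) in sg*Trp53* 3. The summed markers of the other liver cells overlapped between the genotypes. A fibroblast and stellate list summed to 57.3, 3360 and 851 RPM against 2.13, 528 and 398, led by *Col3a1*, *Col1a2* and *Acta2*. Within it 2 of 14 genes did not overlap and were lower in the sg*Kmt2c* lines, beside 8.84% of all genes with a read. So small a count is no result about the list, and the genes are named after their values were seen. The proteoglycan *Dcn* had 85, 9 and 106 reads against 0, 0 and 2, the same order of lines as *Lyz2*. *Tagln*, an actin-binding protein of smooth muscle and myofibroblasts, had 89, 70 and 848 reads against 3, 17 and 39. An endothelial list summed to 103, 37.8 and 30.5 against 16.2, 51.4 and 28.1, led by *Flt1*, with *Pecam1* at most 0.101 RPKM. Hepatocyte genes, led by *Apob*, *Hnf4a* and *Trf*, summed to 63.6, 61.0 and 98.9 against 5750, 7.88 and 359, and biliary and epithelial genes, led by *Krt18*, *Krt8* and *Krt19*, to 2681, 193 and 2310 against 11336, 537 and 1534. None of these lists had a gene called by limma or limma voom. Their part in the values of the 10 genes was not tested.

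The genes nearest in profile to each widely varying member were found among all genes tested, as the smallest root mean square difference of log2(RPKM + 1), centred on each gene's mean, over the 6 lines. For *Lyz2* the nearest was *Mmp12*, the metalloelastase of macrophages, at 18.1, 9.86 and 27.3 RPKM against 0, 0 and 19.4 RPKM (difference 0.482), followed by *Rbm12b1* (0.644) and *Uchl1* (0.645). Its share against C1q was 30.8%, 28.8% and 37.4% in the sg*Trp53* lines but 71.4% in sg*Kmt2c* 3, and the 4 intervals did not share a value. For *Csf1r* the nearest were *Celf2* (0.353), *Plscr2* (0.397) and the chemokine *Ccl6* (0.421). *Ccl6*, which myeloid cells secrete, had 79, 7 and 52 reads against 1, 0 and 11 and so was also low in sg*Trp53* 2. For *Csf1* they were *Parp12* (0.263), *Gm14418* (0.313) and *Sgce* (0.356), which shared its high value in sg*Kmt2c* 2. For *Syk* they were *Sort1* (0.0755), *Prss23* (0.172) and *Rnf144a* (0.246), each highest in sg*Trp53* 3. For *Sirpa* they were *Cdkn2a* (0.503), *Tpm2* (0.522) and *Igf2* (0.569), each of which was lower in each sg*Kmt2c* line than in each sg*Trp53* line. With 6 lines many genes lie near any profile, and no shared function is implied.

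By line, the 10 genes gave the following account. sg*Trp53* 1 had *Csf1r*, *Tyrobp*, *Cd68* and *Sirpa* at their highest, with *Syk* low at 6 reads. sg*Trp53* 2 had *Lyz2* and C1q at 115 and 47 reads, little *Csf1r* and *Itgb2*, and was the line of its genotype with few *Krt8* and many *Col3a1* reads. sg*Trp53* 3 had the highest *Lyz2*, *Adgre1*, *Fcer1g*, *Syk* and *Csf1*. sg*Kmt2c* 1 had no read of *Lyz2*, *Adgre1*, *Tyrobp*, *Syk* or *Sirpa*, the most *Cd47*, and 17 reads of *Csf1r*. sg*Kmt2c* 2 had no read of *Csf1r*, *Adgre1*, *Tyrobp* or *Syk* and nearly as much *Csf1* as any line. sg*Kmt2c* 3 had 67 reads of *Lyz2*, 16 of *Csf1r* and 12 of C1q, no read of *Fcer1g* or *Tyrobp*, and the least *Cd68* and *Cd47*. Without sg*Trp53* 2, which stood apart from its genotype in *Krt8* and *Col3a1*, the median difference of the 10 was -1.24 and *Csf1r* went from -2.06 to -2.70. Without sg*Kmt2c* 1 the median was -0.96.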

How the data were processed

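RNA-seq of 6 lines, 3 per genotype, was analysed. The authors used STAR for alignment (GRCm38) and HTSeq for counting, and deposited RPKM. The deposited table has 21065 rows, of which 209 hold no value, and 6 columns of other samples that were not used. Reads were recovered from RPKM and the listed transcript length (another measure, in bases, deposited by the authors), to within 1.41e-05 of a whole read. For some genes, *Sdc1*, *Hnf4a*, *Apob* and *Lcp1* among them, the listed length is far below the longest GENCODE M1 transcript. Their level against other genes depends on that length. A deposited table of the authors' own DESeq2 comparison (fold changes and p-values) was not used. The plan named a count test for raw counts and limma for RPKM, and limma was used: version 3.58.1 in R 4.3.3, lmFit and eBayes with trend on log2(RPKM + 1), two-sided, genotype as the only term, over genes at or above 1 RPKM in 3 libraries or more, with Benjamini-Hochberg adjustment. The pseudocount of 1 understates changes of low genes. The same steps were run on simulated reads with 200 changed genes. These had a single spread for all genes, and the changed genes were well covered by reads. That run therefore shows nothing about the power for the low genes here or about lines that differ as widely as these. The p-values measure the spread between lines. Pooled read ratios of the low genes have exact 95% intervals, a group without reads was set at 3 reads, and all intervals cover counting error only. Whether counting used strand is not given in the sources used here.

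Genes named are the 10 members, the targeted genes, *Lyz1*, the 3 genes of each list with the highest mean, macrophage and Kupffer list genes with at least 10 reads in a line, and the 3 nearest profiles of members spanning at least 2 on the log2 scale. Other genes are named where a count is small or a defining marker is absent, and were chosen after their values were seen. Members and lists were chosen with earlier results of these data known. Alternatives changed the pseudocount, filter, scaling, test, replicate block and the lines used. No pairing of the lines by replicate number is described, and the fit reported used none. Some genes of the lists are not reported here and enter none of their counts or sums.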

Additional observations from a re-analysis of the deposited data

How the results depend on the processing

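Of all genes tested, 15 were called in the fit reported, and 11 with a pseudocount of 0.5 and 14 with median-of-ratios scaling. The number was 6 with a pseudocount of 0.1, 5 with no filter on low values, 4 with limma voom, 0 when lines 2A and 2T1 were averaged and counted once (1053 at an unadjusted p-value under 0.05), and 0 to 8 when each line was left out (8 without sg*Kmt2c* replicate 1, 0 without any other line, with 563 to 1477 at an unadjusted p-value under 0.05). With the replicate number as a block it was 0 (1085 at an unadjusted p-value under 0.05). Same-numbered lines deviated from their group means with correlations of 0.192, 0.399 and 0.0316. sg*Trp53* 1 and 2 correlated best with the sg*Kmt2c* line of their own number, and sg*Trp53* 3 with sg*Kmt2c* 1. No pairing by number is described in the sources used here, and these correlations do not settle it. The macrophage and Kupffer lists had 0 genes called by limma under every alternative run. At an unadjusted p-value under 0.05 they had 5 to 7 of 9, or 19 of 40 with no filter. Over all genes this was 997 of 11617 in the fit reported and 1405 of 19183 with no filter. The list counts hold both directions, with *Cd14* and *Nr1h3* higher in the sg*Kmt2c* lines. *C1qa*, *C1qb*, *C1qc*, *Ctss* and *Fcgr3* reached the level needed for testing through the sg*Trp53* lines, so these list counts carry no weight. The median difference of the members, -1.24, was -2.63 with a pseudocount of 0.1 and -2.84 with limma voom, both of which enlarge differences of low genes, and -1.35 to -0.90 with a line left out. The *Cd68* difference, -0.46 to 0.23 with a line left out, reversed to 0.17 without sg*Trp53* replicate 1 and 0.23 without sg*Kmt2c* replicate 3. The cause was not tested. Of the other values of single members under the alternatives, 111 moved by less than the spread between lines and 17 moved further, all in the same direction. The 111 include the settings with no filter and with the replicate block. These could not move a member's value, which is a difference of group means, so they say nothing about its stability. The scaling moved the median of all genes by 0.0704. Depth limits *Adgre1*, *Fcer1g*, *Tyrobp* and *Syk*, where a line without reads cannot show that the gene is off.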
